A study of Mus musculus with 12 samples.

Results

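Macrophages bind antibody-coated particles through Fc gamma receptors, which recognise the constant part of immunoglobulin G (IgG). In the mouse, Fcgr1, Fcgr3 and Fcgr4 are activating receptors that depend on the common gamma chain Fcer1g, a small adaptor with an immunoreceptor tyrosine-based activation motif (ITAM), whereas Fcgr2b carries an inhibitory motif. Once the ITAM is phosphorylated by Src family kinases, the tyrosine kinase Syk docks on it and starts the signal that drives phagocytosis. Fcgrt, the neonatal Fc receptor, has another role: inside the cell it binds IgG at low pH and returns it to the surface, away from lysosomal degradation.

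The expression of these 7 genes was followed in bone marrow-derived macrophages from wild-type (WT) and miR-210 knock-out (KO) mice. The genes were picked by symbol, and all 7 were found among the 56941 genes of the count tables. The mice were C57BL/6J, and the KO allele came from crossing floxed miR-210 mice with a Gata-1 Cre line. KO and WT animals were both bred from heterozygous parents. Monocytes, purified from marrow by removing other cells with magnetic beads, were differentiated for 7 days in DMEM with 20% serum and 30% L929-conditioned medium, a source of M-CSF. M2 macrophages then received 20 ng/mL IL-4 for 72 h, and M0 macrophages were cultured alongside with no IL-4. Each of the 4 groups (WT M0, KO M0, WT M2 and KO M2) had 3 RNA-seq libraries, 12 in all. The ages of the mice are not given in the sources used here, and nothing says that the libraries came from separate animals, so p-values measure only the spread between these libraries. The labels also give each group a batch name of its own, so that batch and group cannot be told apart.

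The libraries held 7930525 to 10167695 counted reads. Normalized counts below are read counts scaled to the mean library by the TMM method over all 12 libraries. Reads on the Mir210 gene were few, as total RNA libraries do not capture mature microRNAs: WT M0 libraries had 1, 3 and 5 reads, WT M2 libraries 1, 2 and 1, and the 6 KO libraries 0. A count of 0 allows up to 3 reads, so single libraries do not separate the genotypes on this gene. The 7 macrophage markers (Adgre1, Itgam, Cd68, Csf1r, Mertk, Cd14 and Lyz2) were detected in every library, with summed counts of 62020 to 95903. The IL-4 marker Retnla, a secreted resistin-like protein, was at 0 in all M0 libraries and reached 2448 to 4342 normalized counts in M2. B cell and plasma cell markers summed to 75 to 204 counts, mostly Cd79b and Ighm, and T and NK cell, neutrophil, mast cell and fibroblast markers to at most 50 counts per library. Erythroid markers summed to 0 in all KO libraries and to 0 to 42 in WT libraries. Dendritic cell markers summed to 4 to 11 counts in M0 and 90 to 145 in M2, nearly all from Zbtb46.

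Fcgr2b, Fcgr3, Fcgr4 and Fcer1g lie close together on mouse chromosome 1 (GRCm39). Fcgr2b (1:170786186-170804177, minus strand), Fcgr4 (1:170846466-170857330, plus strand) and Fcgr3 (1:170878738-170893549, minus strand) share a stretch of 107 kb, and Fcer1g (1:171057141-171062219, minus strand) follows. Fcgr1 is on chromosome 3 (96190225-96201338, minus strand), Fcgrt on chromosome 7 (44742412-44756819, minus strand) and Syk on chromosome 13 (52736696-52802828, plus strand). Fcgr2b and Fcgr3 are near copies of each other in part of their coding sequence, which matters for counting. Of all 50-base stretches in their annotated transcripts, 4.85% of those of Fcgr2b and 7.33% of those of Fcgr3 also occur in another gene, 166 of them in each other. Fcgr1, Fcgr4, Fcer1g, Fcgrt and Syk shared none. The longest run common to Fcgr2b and Fcgr3 is 129 bases. It is shown here with 20 bases on either side, from the coding part of exons 5 and 6 of each gene, and capitals mark the 2 bases that differ. On GRCm39 the Fcgr2b sequence spans chr1:170794223-170795670 and the Fcgr3 sequence chr1:170881716-170885381, intron included, both on the minus strand.
Fcgr2b: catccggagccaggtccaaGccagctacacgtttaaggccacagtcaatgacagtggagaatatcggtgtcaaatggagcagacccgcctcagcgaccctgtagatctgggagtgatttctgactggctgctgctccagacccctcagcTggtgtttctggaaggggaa
Fcgr3: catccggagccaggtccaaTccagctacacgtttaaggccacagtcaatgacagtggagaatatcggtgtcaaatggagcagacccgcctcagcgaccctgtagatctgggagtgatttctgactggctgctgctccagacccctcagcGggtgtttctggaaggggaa

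The deleted microRNA acts by pairing its seed with matching bases in target transcripts. The mature miR-210-3p sequence of RefSeq is given with the seed (bases 2 to 8) in capitals, since the search below rests on it.
mmu-miR-210-3p: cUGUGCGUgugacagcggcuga
The reverse complement of the seed, ACGCACA, was searched in the annotated 3′ untranslated regions of GRCm39. None of the 7 genes held a match, against 5.2% of the 20973 genes with such a region. The absence says only that these 7 letters are not in the annotated regions.

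The promoters of the receptors were compared because the responses to IL-4 differed between them. Each window covers 250 bases before to 50 bases after the RefSeq start (GRCm38.p6, a build other than that of the counts), and all 7 genes had an entry. Searched on both strands were TTCNNNGAA, the gamma-interferon activated site (GAS), TTCNNNNGAA, the spacing that the IL-4 factor STAT6 prefers, and GAGGAA, the core of sites for the myeloid factor PU.1. Over all 32851 promoter windows, 8.3%, 6.95% and 28.3% held them. Fcgr1 had the GAS letters and a PU.1 core, Fcgr3 and Fcgr4 a PU.1 core alone. Syk had the core at one of its 2 starts, and Fcgr2b, Fcer1g and Fcgrt had none of the letters. No gene of the 7 had the STAT6 spacing. The activating receptors are printed with matches in capitals. They are Fcgr1 (chr3:96293920-96294219, minus strand), Fcgr3 (chr1:171059354-171059653, minus strand) and Fcgr4 (chr1:171018676-171018975, plus strand).
Fcgr1: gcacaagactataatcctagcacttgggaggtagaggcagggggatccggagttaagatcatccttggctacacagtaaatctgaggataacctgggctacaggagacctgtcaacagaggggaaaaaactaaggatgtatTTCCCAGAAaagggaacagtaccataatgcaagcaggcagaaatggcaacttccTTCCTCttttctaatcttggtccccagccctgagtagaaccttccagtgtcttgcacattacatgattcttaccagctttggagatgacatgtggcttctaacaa
Fcgr3: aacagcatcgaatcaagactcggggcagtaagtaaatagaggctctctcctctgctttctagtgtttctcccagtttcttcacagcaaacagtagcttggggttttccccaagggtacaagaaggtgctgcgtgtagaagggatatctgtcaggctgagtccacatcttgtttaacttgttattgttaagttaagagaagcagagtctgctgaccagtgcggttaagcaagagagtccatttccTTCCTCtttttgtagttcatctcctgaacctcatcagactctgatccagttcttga
Fcgr4: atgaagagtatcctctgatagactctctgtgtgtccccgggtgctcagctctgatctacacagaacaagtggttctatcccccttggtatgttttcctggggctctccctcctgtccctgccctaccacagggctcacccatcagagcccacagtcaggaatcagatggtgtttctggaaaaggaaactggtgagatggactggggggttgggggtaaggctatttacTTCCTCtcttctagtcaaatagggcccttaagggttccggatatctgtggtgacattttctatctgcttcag
These matches describe the letters in the windows and were not tested as binding sites.

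To set the genes side by side, levels were expressed as CPM per kb, that is, counts scaled by library size and divided by the exon length in kilobases. The gamma chain Fcer1g was the most abundant, with 478 ± 46.6 CPM per kb in WT M0 (mean ± SD, n = 3). Fcgr3 (254 ± 12.9) and Fcgr4 (242 ± 66.8) followed, with overlapping libraries. Fcgr1 (143 ± 27.4) and Fcgr2b (136 ± 17.1) came next, also overlapping, then Syk (43.6 ± 0.845) and Fcgrt (23.5 ± 2.34). In KO M0 the order was Fcer1g, Fcgr3, Fcgr4, Fcgr2b, Fcgr1, Syk and Fcgrt, and no neighbours in it overlapped. In WT M2 the level of Fcgr1 fell to 18.2 ± 1.28 CPM per kb, below Syk (49.8 ± 0.743) and above Fcgrt (13.0 ± 1.96). In KO M2 Fcgr1 was last with 15.9 ± 3.90 CPM per kb, overlapping Fcgrt (16.6 ± 2.74), and Fcer1g (335 ± 13.7) overlapped Fcgr3 (320 ± 18.6). The order rested on the length used. Divided by the longest transcript instead, Fcgr3 was above Fcer1g in M2 (434 against 367 in WT and 499 against 375 in KO). Fcgr2b was then above Fcgr1 in WT M0 (213 against 189), and above Fcgr4 in KO M0 (203 against 184), WT M2 (216 against 154) and KO M2 (242 against 186).

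**Figure D1:**
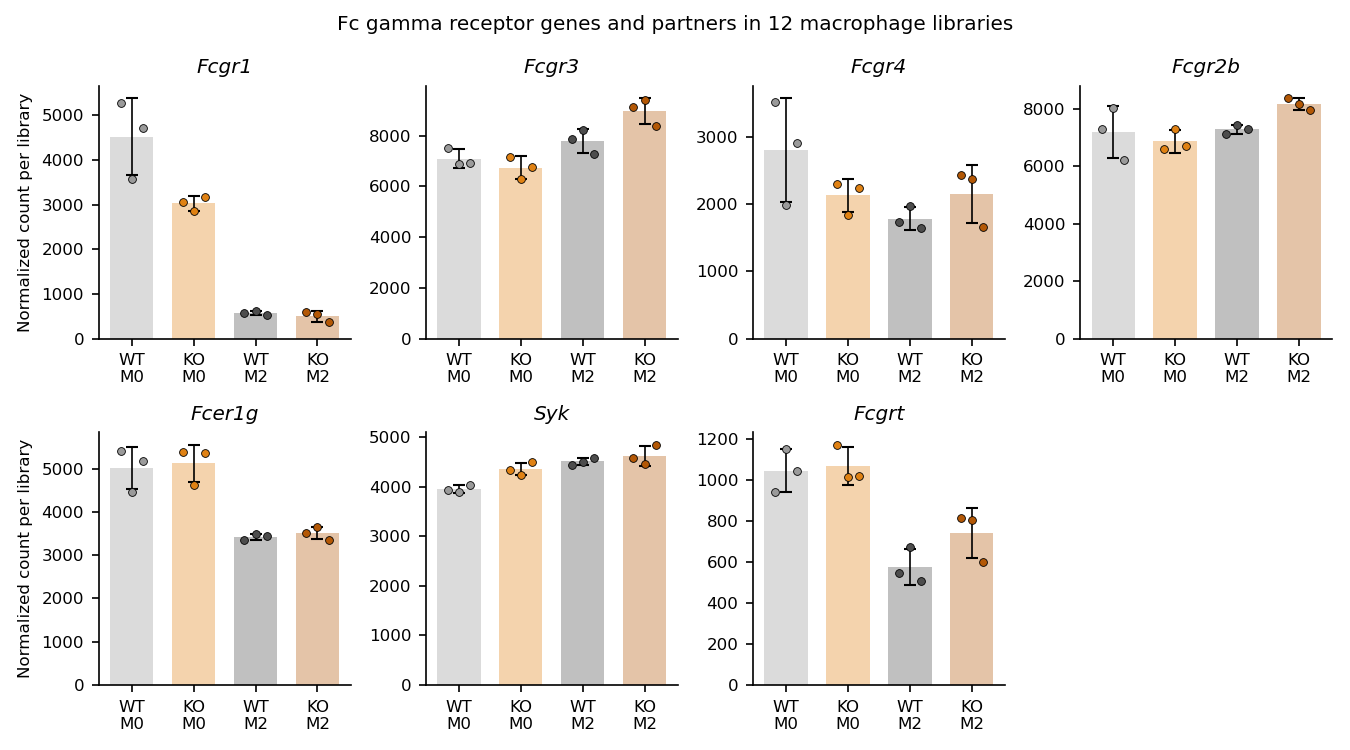
Normalized count (y axis, linear from 0) of each of the 7 genes in WT M0, KO M0, WT M2 and KO M2. Points are single libraries, bars the mean and whiskers the SD (n = 3); Fcgr1 dropped from 3572 to 5267 in WT M0 to 531 to 611 in WT M2, while Fcgr2b stayed between 6230 and 8367 in all 12 libraries.

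The first question was how IL-4 changed these genes. In WT macrophages 4 of the 7 were called lower in M2 than in M0 and none higher, against 45.4% of all genes called (21.8% lower, 23.6% higher). A call needed a change of more than 1.2-fold and an adjusted p below 0.05. In KO macrophages 3 were called lower and 1 higher, against 36.6% of all genes (18.1% lower, 18.5% higher). All p-values are from edgeR's quasi-likelihood test with Benjamini-Hochberg adjustment over all genes tested. In bulk RNA, fewer cells making a transcript and less transcript per cell cannot be told apart.

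Fcgr1, the high-affinity IgG receptor CD64, fell the most of the 7. WT M0 libraries had 5267, 3572 and 4718 normalized counts and WT M2 libraries 580, 611 and 531. KO M0 libraries had 3066, 2850 and 3174, and KO M2 libraries 590, 553 and 360. In both genotypes every M2 library was far below every M0 library, by 7.87-fold between the group means in WT and 6.05-fold in KO. The log2 fold change was -2.97 ± 0.12 (SE, adjusted p = 4.695e-10) in WT and -2.59 ± 0.15 (adjusted p = 2.576e-08) in KO.

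Fcgr4, the activating receptor for IgG2a and IgG2b, was called in WT alone. Its WT M0 libraries had 3520, 1984 and 2914 normalized counts and its WT M2 libraries 1733, 1977 and 1641, so the groups were separate by a narrow margin only. KO M0 libraries had 2307, 1842 and 2239, and KO M2 libraries 2429, 2367 and 1660, which overlap. Fcgr4 fell in WT (log2 fold change -0.64 ± 0.15, adjusted p = 0.003262). In KO the change was 0.02 ± 0.13 (95% interval -0.27 to 0.31, adjusted p = 0.9414). The difference between the 2 changes, tested as an interaction, was 0.67 ± 0.24 on the log2 scale (95% interval 0.16 to 1.17) with an unadjusted p of 0.0124 and an adjusted p of 0.3649, and was not called.

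Fcgr3, the low-affinity activating receptor CD16, was called in KO alone, as higher. WT M0 libraries had 7513, 6865 and 6915 normalized counts and WT M2 libraries 7879, 8227 and 7280, with overlap. KO M0 libraries had 7176, 6289 and 6767 and KO M2 libraries 9114, 9397 and 8390, all above KO M0. Fcgr3 rose in KO (log2 fold change 0.41 ± 0.08, adjusted p = 0.00118). In WT the change was 0.14 ± 0.07 (adjusted p = 0.1128), and the interaction of 0.28 ± 0.10 had an adjusted p of 0.396.

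Fcgr2b, the inhibitory receptor CD32b, was called in neither genotype. WT M0 libraries had 7302, 8027 and 6230 normalized counts and WT M2 libraries 7122, 7422 and 7295. The log2 fold change of 0.02 ± 0.08 had a 95% interval from -0.16 to 0.21. KO M0 libraries had 6580, 7310 and 6706 and KO M2 libraries 8367, 8172 and 7949, all higher. There the change was 0.25 ± 0.07 with an adjusted p of 0.01744, just under the fold limit, so it was not called. Leaving out single libraries gave 0.22 to 0.29, and without KO M0 library 2 it was called, at 0.29.

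The partners of the receptors changed less than Fcgr1. Fcer1g, the common gamma chain, fell in both genotypes: from 4469 to 5408 normalized counts in WT M0 to 3350 to 3490 in WT M2, and from 4620 to 5392 in KO M0 to 3362 to 3649 in KO M2. Its log2 fold changes were -0.54 ± 0.07 (adjusted p = 3.934e-05) in WT and -0.55 ± 0.08 (adjusted p = 0.0001731) in KO. Fcgrt, the neonatal receptor, fell in both as well. It went from 941, 1150 and 1044 to 546, 675 and 509 in WT (log2 fold change -0.85 ± 0.10, adjusted p = 1.434e-05). In KO it went from 1173, 1013 and 1018 to 815, 804 and 598 (-0.53 ± 0.11, adjusted p = 0.002946).

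Syk varied little between libraries of a group (coefficient of variation 1.49 to 4.45%). Its 3881 to 4031 normalized counts in WT M0 and 4441 to 4575 in WT M2 did not overlap. The log2 fold change of 0.20 ± 0.06 had an adjusted p of 0.01369 but was under the fold limit. In KO, M0 libraries with 4240 to 4491 and M2 libraries with 4444 to 4846 overlapped, and the change was 0.09 ± 0.07. Counted by overlap alone, 5 of the 7 genes had separate M0 and M2 groups in WT and 5 in KO, against 57.0% (28.3% higher, 28.7% lower) and 46.3% (23.6% higher, 22.7% lower) of all genes tested.

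**Figure D2:**
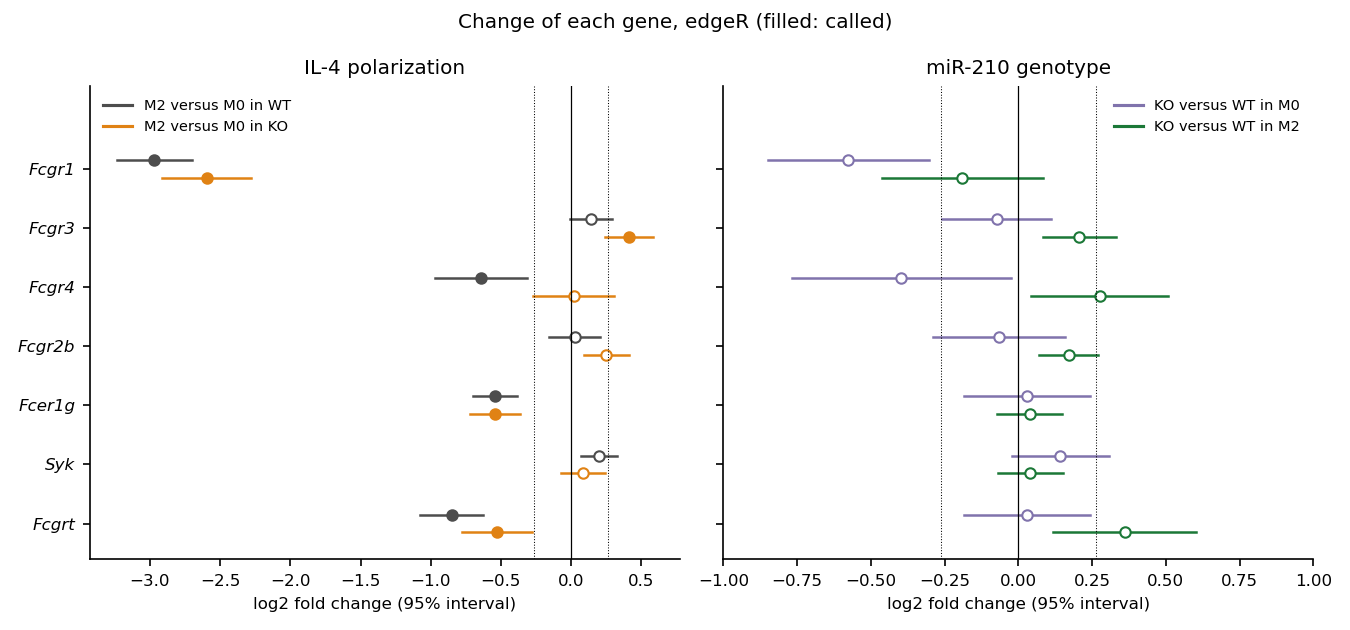
log2 fold change (x axis) with 95% interval of each gene for M2 against M0 (left) and KO against WT (right), from edgeR; filled points were called and dotted lines mark the 1.2-fold limit. Fcgr1 lies at -2.97 in WT and -2.59 in KO on the left, and every point on the right is open.

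The second question was whether loss of miR-210 changed the same genes. None of the 7 was called in KO against WT, in M0 (0.461% of all genes called, 0.22% higher and 0.241% lower) or in M2 (0.98%, with 0.408% higher and 0.572% lower). At an unadjusted p under 0.05 the edgeR test gave 2 of the 7 in M0, where 1410 of 14089 genes passed, and 4 in M2, where 1498 of 13980 passed. DESeq2 called 1 of the 7 in M0 and 0 in M2, against 218 and 140 of all genes. With both states in 1 model, the genotype difference was called for none of the 7 (1.07% of all genes called, 0.405% higher and 0.668% lower), 1 had an unadjusted p under 0.05 (as did 1544 of 14825 genes), and DESeq2 called 0. The interaction was called for no gene by edgeR (0.0% of all genes), with 2 of the 7 at an unadjusted p under 0.05 (as were 1327 of 14825 genes) and none of the 7 called by DESeq2.

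In M0, Fcgr1 showed the largest difference of the 7. Its 3 KO libraries (2850 to 3174 normalized counts) were all below the 3 WT libraries (3572 to 5267), a mean 1.49-fold lower. The log2 fold change was -0.58 ± 0.12 (95% interval -0.85 to -0.30) with an unadjusted p of 0.0006755 and an adjusted p of 0.08275. This call turned on the method: over the alternative fits the adjusted p ranged from 2.078e-07 to 0.3683. DESeq2's Wald test, the test of the study, called it at 0.0008829, and edgeR called it at 0.0478 when all 12 libraries shared 1 estimate of the spread. Leaving out WT M0 library 2, the lowest WT library for this gene, gave -0.71 with an adjusted p of 0.001554 from edgeR. Over all single libraries left out the value ran from -0.71 to -0.45, and no other gave a call.

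Fcgr4 had a lower mean in KO M0, with overlapping libraries (1842 to 2307 against 1984 to 3520). Its log2 fold change was -0.40 ± 0.17 with an adjusted p of 0.4491, and without WT M0 library 2 it was called at -0.58. Over all single libraries left out it ran from -0.58 to -0.20. Syk was higher in every KO M0 library than in every WT M0 library (4240 to 4491 against 3881 to 4031), by 0.14 ± 0.08 on the log2 scale (adjusted p = 0.5818). Fcgr1 and Syk were thus 2 of 7 with separate groups, against 14.4% of all genes (7.15% higher, 7.28% lower). For Fcgr2b, Fcgr3, Fcer1g and Fcgrt the differences in M0 lay between -0.07 and 0.03, and the widest of their 95% intervals ran from -0.29 to 0.16.

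In M2 the KO means of 6 of the 7, all but Fcgr1, were higher than the WT means, and none was called. For Fcer1g and Syk the difference was near 0 (0.04 each on the log2 scale). The median log2 fold change over all genes was 0.002, and the share of all genes with a higher KO mean was not counted. Fcgr2b was higher in all 3 KO libraries (7949 to 8367) than in all 3 WT libraries (7122 to 7422), with a log2 fold change of 0.17 ± 0.05 (adjusted p = 0.1231). Fcgr3 was likewise separate (8390 to 9397 against 7280 to 8227), at 0.21 ± 0.06 (adjusted p = 0.1261). These were 2 of 7, against 16.0% of all genes with separate groups (7.52% higher, 8.53% lower). Fcgr2b and Fcgr3 share the coding stretch shown above, and how reads from it were assigned was not tested.

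Fcgr4 (0.28 ± 0.11, adjusted p = 0.3483) and Fcgrt (0.36 ± 0.11, adjusted p = 0.1991) were higher in 2 of 3 KO M2 libraries, while KO M2 library 3 lay inside the WT range for both. Without that library both were called, at 0.43 and 0.49. Over all single libraries left out, Fcgr4 ran from 0.18 to 0.43 and Fcgrt from 0.28 to 0.49. Fcgr1 differed by -0.19 ± 0.13, Fcer1g by 0.04 ± 0.05 and Syk by 0.04 ± 0.05 on the log2 scale, with adjusted p of 0.6602, 0.8676 and 0.8565. Averaged over M0 and M2, Fcgr1 was -0.41 ± 0.11 in KO (adjusted p = 0.1182) and the other 6 lay between -0.07 and 0.19.

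The balance of activating and inhibitory receptors was described per library from the per-length levels. The summed level of Fcgr1, Fcgr3 and Fcgr4 over that of Fcgr2b was 5.36, 3.50 and 5.51 in the WT M0 libraries and 4.45, 3.44 and 4.23 in KO M0. It was 3.34, 3.46 and 3.04 in WT M2 and 3.51, 3.62 and 3.03 in KO M2. In WT every M2 library was below every M0 library, by a narrow margin (3.46 against 3.50). In KO the groups overlapped, and the genotypes overlapped in both states. Within the activating sum, Fcgr1 made up 22.3 ± 0.875% in WT M0 and 18.4 ± 0.785% in KO M0, without overlap. Its share was 4.03 ± 0.0472% in WT M2 and 3.01 ± 0.445% in KO M2, also without overlap. Fcgr3 had the largest mean share in every group, though in WT M0 it overlapped Fcgr4. It made up 61.8 ± 0.983% in WT M2 and 61.6 ± 3.80% in KO M2, from 40.2 ± 5.32% and 46.3 ± 1.14% in M0. The gamma chain per activating receptor was 0.697 to 0.804 in WT M0 and 0.929 to 0.953 in KO M0, and 0.687 to 0.785 in WT M2 and 0.605 to 0.705 in KO M2. Transcript ratios do not measure receptors at the surface.

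**Figure D3:**
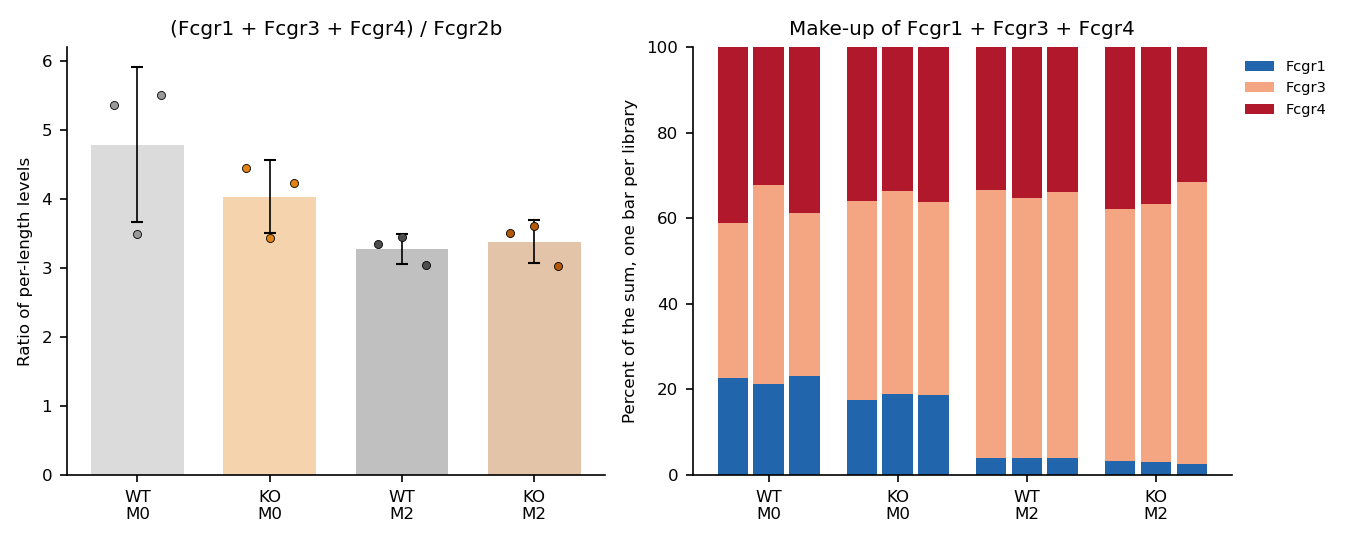
Left, ratio of the summed per-length level of Fcgr1, Fcgr3 and Fcgr4 to that of Fcgr2b in each group (points are libraries, bars the mean, whiskers the SD, n = 3). Right, percent of that sum from each receptor, 1 bar per library; Fcgr1 falls from 17.6 to 23.0% in M0 to 2.51 to 4.09% in M2.

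The wider pathway was read from 8 lists of 132 genes, of which 131 were in the tables. Of the 116 tested for M2 against M0 in WT, 33 were called higher and 41 lower (63.8%, against 45.4% of all genes), with a median log2 fold change of -0.10 against 0.01 over all genes. In KO, 31 were higher and 40 lower of 116 (61.2% against 36.6%). These counts include genes, some marked below, that passed the count filter through M0 or M2 alone, so that their direction was close to fixed. The lists were chosen for their role in the pathway and with earlier results of these data known. Where a pair of values is given for a gene below, the first is for WT and the second for KO, which share no libraries.

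Among other receptors and adaptors that use an ITAM, 3 of 8 tested were higher and 2 lower in WT M2. Clec7a, the beta-glucan receptor Dectin-1, rose by 4.46 ± 0.09 on the log2 scale in WT and 4.24 ± 0.13 in KO. Cd300ld, an activating receptor of the CD300 family, rose by 2.37 ± 0.07 and 2.35 ± 0.09. Clec4d, a C-type lectin receptor that pairs with Fcer1g, changed by -1.08 ± 0.07 and -1.31 ± 0.09, and Sirpb1c, a signal-regulatory protein, by -0.80 ± 0.15 and -1.05 ± 0.12. All 8 values were called. Sirpb1c and Cd300ld belong to families with close copies, whose shared reads may be split.

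Of the list of other Fc receptors and Fc receptor-like genes, 13 were in the tables and 5 passed the count filter. All 5 were called in both genotypes, 1 higher and 4 lower, against 45.4% of all genes in WT and 36.6% in KO. Fcrl1 and Fcrl5 passed the filter only through their M0 libraries, so their calls as lower were close to fixed in advance. Fcrlb had 6 to 15 reads in KO M0 and passed there only with its M2 libraries. Its call as higher in KO was thus also close to fixed in advance. Fcrlb rose by 1.33 ± 0.25 in WT and 1.67 ± 0.33 in KO, from 14.6 ± 4.46 normalized counts (SD, n = 3) in WT M0 to 35.8 ± 2.54 in WT M2. Fcrl1 and Fcrl5, best known from B cells, were nearly lost in M2. Fcrl1 had 99.1 to 227 normalized counts in WT M0 and 2.24 to 5.72 in WT M2. In KO it had 289 reads over the M0 libraries and 9 over the M2 libraries, 27.96-fold lower with a 95% counting interval of 14.5 to 61.8. Fcrl5 had 289 reads in the 3 WT M0 libraries together and 1 in WT M2, 275-fold lower with a counting interval of 48.9 to 1.089e+04 (exact binomial, 95%). In KO it had 217 and 6 reads, 31.5-fold lower (14.2 to 86.8). The B cell and plasma cell markers moved in part with them, from 95 to 204 summed counts in WT M0 to 75 to 112 in WT M2 and from 128 to 184 in KO M0 to 106 to 116 in KO M2; Cd79b stayed at 46 to 97 reads in every library.

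Of the Src and Tec family kinases, which phosphorylate the ITAM or act beside Syk, 2 of 8 were higher and 2 lower in WT M2. Src rose by 4.31 ± 0.12 in WT and 4.42 ± 0.18 in KO, from 25.4 ± 3.02 to 504 ± 29.9 normalized counts (SD, n = 3) in WT. Fyn rose by 1.92 ± 0.09 and 2.07 ± 0.10. Lyn, a Src family kinase prominent in myeloid cells, fell by 1.26 ± 0.06 and 1.18 ± 0.08.

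Among 15 phosphatases and other inhibitors, 3 were higher and 6 lower. Cblb, a ubiquitin ligase, rose by 2.24 ± 0.07 in WT and 2.36 ± 0.09 in KO, and Dok2, an adaptor that dampens signalling, by 1.67 ± 0.07 and 1.36 ± 0.09. Inpp5d, the lipid phosphatase SHIP1 that Fcgr2b recruits, fell by 0.61 ± 0.08 and 0.45 ± 0.09. Pag1, an adaptor that holds the Src inhibitor Csk at the membrane, fell by 0.55 ± 0.08 and 0.33 ± 0.11. Its call in KO was lost on leaving out KO M0 library 2 or 3 or KO M2 library 1 or 2 (-0.35 to -0.24, adjusted p up to 0.1494 from edgeR). Of 15 adaptors downstream of Syk, 5 were higher and 5 lower. Lat, a membrane scaffold, had 8 reads over the WT M0 libraries and 353 in WT M2, and 9 and 246 in KO. It passed the filter only through its M2 libraries, so its calls as higher were close to fixed in advance. Shc1 rose by 1.61 ± 0.08 and 1.41 ± 0.09 and the Syk substrate Blnk by 1.30 ± 0.07 and 1.22 ± 0.08. Fyb1 (-1.39 ± 0.10 and -1.26 ± 0.10) and Lcp2, the scaffold SLP-76 (-0.50 ± 0.09 and -0.43 ± 0.08), fell.

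Of 21 phospholipases, lipid kinases and protein kinases C, 9 were higher and 9 lower in WT M2. Sphk1, which makes sphingosine-1-phosphate, rose from 3.70 ± 0.925 to 154 ± 4.87 normalized counts (SD, n = 3) in WT and from 3.03 ± 1.31 to 101 ± 16.1 in KO. With 2 to 5 reads per M0 library it passed the filter only through M2, so its calls as higher were close to fixed in advance. The kinase Prkcd rose by 1.39 ± 0.06 on the log2 scale in WT and 1.39 ± 0.07 in KO. Pik3ap1, an adaptor of phosphoinositide 3-kinase, fell by 1.15 ± 0.06 and 1.10 ± 0.08. Pik3r1, a regulatory subunit of that kinase, fell by 0.81 ± 0.11 in WT; in KO its value was -0.33, not called. Of 34 genes for the actin machinery of the phagocytic cup and its regulators, 7 were higher and 10 lower. The motor Myo1e rose by 2.02 ± 0.08 and 1.80 ± 0.09 and the kinase Limk1 by 1.41 ± 0.08 and 1.22 ± 0.09. Marcksl1 (-2.26 ± 0.15 and -2.96 ± 0.11) and the exchange factor Vav1 (-0.82 ± 0.07 and -0.70 ± 0.09) fell. In the MAP kinase and NF-kB arm, 3 of 10 were higher and 3 lower. Malt1 rose by 3.25 ± 0.11 and 2.80 ± 0.10 and Nfatc1 fell by 0.66 ± 0.07 in WT and had -0.26 in KO, not called.

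**Figure D4:**
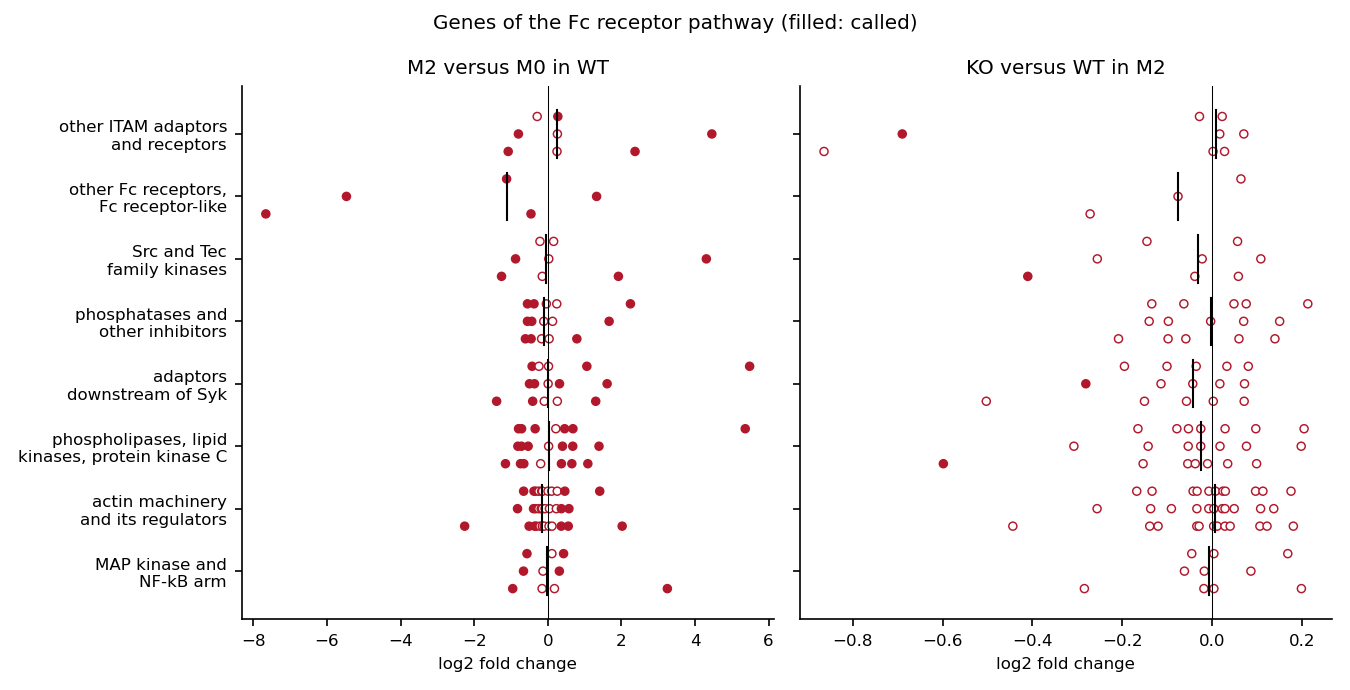
log2 fold change (x axis) of every tested gene of the 8 pathway lists for M2 against M0 in WT (left) and KO against WT in M2 (right, narrower scale); filled points were called and black bars are list medians. In the left panel called genes lie on both sides of 0, and in the right panel 4 genes are filled, all below 0.

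Loss of miR-210 touched few genes of the pathway. In M0 none of 114 was called by edgeR, against 0.461% of all genes, and DESeq2 called 1. In M2, 4 of 114 were called lower and none higher (3.51%, against 0.98% of all genes, 0.572% lower). Sirpb1c had 398, 372 and 392 normalized counts in WT M2 and 236, 262 and 216 in KO M2, a log2 fold change of -0.69 ± 0.09 (adjusted p = 0.0004218). Src had 470 to 528 in WT M2 and 336 to 431 in KO M2 (-0.41 ± 0.09, adjusted p = 0.03681). Sphk1 had 149 to 159 and 83.1 to 115 (-0.60 ± 0.13, adjusted p = 0.03376), and Blnk 1021 to 1092 and 848 to 915 (-0.28 ± 0.06, adjusted p = 0.03755). All 4 were separate between genotypes, as were 8.53% of all genes as lower. This adds little for genes picked by their call in the same libraries. In a fit of all 12 libraries none of the 4 was called, and leaving out single libraries left 1 to 6 of the pathway genes called lower (1 without WT M2 library 1, WT M2 library 3 or KO M2 library 2, 2 without KO M2 library 1). Averaged over M0 and M2, Sirpb1c (-0.56 ± 0.11, adjusted p = 0.01108), Src (-0.43 ± 0.10, adjusted p = 0.03144) and Sphk1 (-0.58 ± 0.14, adjusted p = 0.04845) were called lower, 3 of 116 against 1.07% of all genes. Leaving out any of WT M0 library 1 or 3, WT M2 library 2 or 3, or KO M2 library 2 or 3 left 1.

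Genes around the chromosome 1 cluster were counted to see whether their neighbourhood moved with the receptors. Within 1 Mb of the stretch from Fcgr2b to Fcgr3, 22 of 47 other tested genes (46.8%) were called between M2 and M0 in WT, 11 in each direction. Among all 14266 genes tested there, of any type or level, 5055 were called. In KO 43.8% of 48 were called, against 4065 of all 14331 tested. In KO against WT, edgeR called 1 of 46 in M0 (0.461% of all genes) and none of 48 in M2 (0.98% of all genes). The 1 gene was Usf1, a transcription factor at 1:171238847-171247913, with a log2 fold change of -0.55 ± 0.10 (adjusted p = 0.04679).

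The genes whose profiles over the 12 libraries most resembled each of the 7 were found by Pearson's r of log2 CPM among 14824 others. These values describe libraries in which IL-4 sets most of the variation, so any gene that responds in the same direction scores high. For Fcgr1 the closest were Ifit1, Trim30a and Trim30d (r = 0.998 for each). For Fcer1g they were Tifa (0.993), Bri3 (0.991) and Abhd12 (0.989), and Fcer1g itself had r = 0.956 with Fcgr1. For Fcgrt they were Depdc7 (0.967), Zfp799 (0.960) and Tle6 (0.957), and for Syk Ctu2 (0.955), Tubb4b (0.934) and Dlst (0.930). For Fcgr4 they were Serpinb6a (0.947), Mat2b (0.923) and Gvin1 (0.920), and for Fcgr3 Cnrip1 (0.941), Osbpl11 (0.933) and Ifitm1 (0.932). Fcgr2b had the lowest top values of the 7, with Vrk1 (0.860), Gm49783 (0.854) and 2900089D17Rik (0.853).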

How the data were processed

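Count tables deposited by the authors held read counts per gene for the 12 libraries; per the study's methods, stranded paired-end reads were trimmed with Trimmomatic, freed of PCR duplicates with Picard, aligned to GRCm39 with STAR and counted with featureCounts. The authors also deposited a normalized signal per gene (counts divided by DESeq2 size factors set for each pair of groups), used only to check levels. Table columns name a group and a number, which was not tied to single samples. Each pair of groups was fitted with edgeR 4.0.16 (glmQLFit, TMM, filterByExpr), and the interaction and the averaged genotype difference in 1 fit of 12 libraries. Calls needed a change of more than 1.2-fold with adjusted p below 0.05, and for M2 against M0 also a protein-coding gene with an average normalized count over 10; the interaction had no fold limit. SE is the log2 fold change over the square root of F. DESeq2 1.42.0, other filters, scaling, fits, single libraries left out and a replicate block were alternatives. Fits were tested on simulated data.

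The 7 genes and all lists were chosen with earlier results of these data known. Named pathway genes were those called for genotype and the 2 largest changes each way per list in WT; the 3 most alike genes were taken per member. A few pathway genes that this rule names are not reported here. Ensembl identifiers were matched to GENCODE vM39 symbols (56323 of 56941 genes). Within each group the libraries were farther apart than sampling noise (chi-square per degree of freedom 1.9 to 9.85), so none was counted as a duplicate. Depth was 7930525 to 10167695 counted reads per library, and counting intervals and floors cover counting error only.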

Additional observations from a re-analysis of the deposited data

How the results depend on the processing

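Of 574 fold changes of the 7 genes refitted under an alternative, 536 kept their direction and their side of the threshold. All calls of the 7 genes for M2 against M0 held in the refits at the 1.2-fold limit, from -3.11 to -2.85 for Fcgr1 in WT and from -0.84 to -0.45 for Fcgr4. A sign change was seen only for values near 0: on leaving out single libraries, Fcer1g (-0.0357 to 0.1038), Fcgr2b (-0.1575 to 0.0325) and Fcgrt (-0.041 to 0.1151) in KO against WT in M0, Fcgr2b in M2 against M0 in WT (-0.0742 to 0.1118), Fcgr4 in M2 against M0 in KO (-0.0851 to 0.1603), the interaction of Fcer1g (-0.0721 to 0.0677) and the averaged difference of Fcgr4 (-0.1426 to 0.0588). The interaction of Fcer1g was also -0.0081 without a filter and -0.0014 with at least 10 counts in every library.

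Of the 7 genes, those lower in KO M0 numbered 0 in the reported fit, 1 with DESeq2 and with all 12 libraries, 2 without a filter and 0 to 2 on leaving out libraries. Those higher in KO M2 numbered 0, then 2 without a filter and 0 to 2 on leaving out libraries. The averaged difference gave 0, then 1 lower without a filter and 0 to 1 on leaving out libraries (1 without WT M0 library 2 or KO M2 library 1), and the interaction 0, then 1 higher without a filter (Fcgr4). For M2 against M0, no fold limit gave 1 higher in WT and 2 in KO; a log2 limit of 1 gave 1 lower in each and 0 higher in KO; leaving out libraries gave 1 to 2 higher in KO. Of the pathway genes, in KO M0 DESeq2 called 1 lower, no filter 3 higher and 2 lower, and leaving out libraries 0 to 2 higher and 0 to 1 lower. In KO M2, those lower numbered 4, then 9 without a filter, 0 with all 12 libraries or a log2 fold limit of 1, and 1 to 6 on leaving out libraries; the averaged difference gave 3, then 5 without a filter, 0 with a log2 fold limit of 1, and 1 to 4. The interaction gave 1 lower with DESeq2, and 1 higher and 3 lower without a filter. With a log2 fold limit of 1, the pathway genes of M2 against M0 numbered 17 higher and 8 lower in WT and 15 and 11 in KO. Over all genes, DESeq2 called 218 in KO against WT in M0 where edgeR called 65, and 92 against 0 for the interaction; the cause was not tested.

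No label ties the library numbers in the tables to shared samples. Deviations of same-numbered libraries correlated at 0.107, 0.336 and 0.022 between WT M0 and KO M0. In the other pairs of groups they correlated at -0.268 to 0.077. Whether library 2 of the M0 groups, at 0.336, shared a source was not tested. With the number as a replicate block, 1 of the 7 was called lower in KO M0 (Fcgr1, -0.56, adjusted p = 0.007753) and 2 higher in KO M2 (Fcgr4 and Fcgrt), and pathway genes numbered 1 higher and 1 lower in M0 and 7 lower in M2. The block also raised the calls over all genes, to 2.02% in M0 and 2.07% in M2, from 0.461% and 0.98%.

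With the longest transcript in place of all exons, the ratio of activating receptors to Fcgr2b was 3.94 in WT M0, 3.39 in KO M0, 2.84 in WT M2 and 2.92 in KO M2, against 4.79, 4.04, 3.28 and 3.39, and Fcgr4 to Fcgr2b alone in KO M0 was 0.910 against 1.43. The share of Fcgr3 in the activating sum was then 48.3% in WT M0, 54.7% in KO M0 and 70.9% in both WT M2 and KO M2. In a 5 Mb window around the cluster, 1 of 96 genes was higher in KO in M0 and in M2 (Ifi208 in both, named after its values were seen). For M2 against M0, 18 were higher and 25 lower of 96 in WT (44.8%), and 20 and 25 of 97 in KO (46.4%). The counts over all genes are those given for the 1 Mb window. Depth limits Mir210, which had at most 5 reads per library.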

Other observations

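Library 2 of both M0 groups stood at the same edge of its group for 6 of the 7 genes. The share of all genes that did so was not counted. Over all genes with at least 20 reads in a pair, library 2 was also the most distant library in both M0 groups. Chi-square per degree of freedom was 8.45 and 6.20 with it in WT M0, against 2.90 without it. In KO M0 it was 9.85 and 8.42 with library 2, against 6.63 without it. In WT M0, library 2 was the lowest for Fcgr1 (3572 normalized counts), Fcgr3 (6865), Fcgr4 (1984), Fcer1g (4469) and Syk (3881) and the highest for Fcgr2b (8027). In KO M0, library 2 was again the lowest for Fcgr1 (2850), Fcgr3 (6289), Fcgr4 (1842), Fcer1g (4620) and Syk (4240) and the highest for Fcgr2b (7310). Fcgrt did not follow this pattern, being highest in WT library 2 (1150) and lowest in KO library 2 (1013). The ratio of activating receptors to Fcgr2b was lowest in library 2 of both groups, at 3.50 in WT M0 and 3.44 in KO M0. The value of 3.44 lies inside the range of both M2 groups. The value of 3.50 lies inside that of KO M2 (3.03 to 3.62) and just above that of WT M2 (3.04 to 3.46). The numbers are those of the table columns and are not tied by the labels to a shared culture or day.

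The gene with the closest profile to Fcgr1 among the 7 was Fcer1g, and Fcgr3 ran against Fcgr1 (r = -0.740 over 12 libraries), as did Syk (-0.830). These values take in the difference between M0 and M2. Within every group, the library lowest for Fcgr1 was also the lowest for Fcgr3. For Syk this held in the M0 groups only.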
